A study of Mus musculus with 2 samples.

Results

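The genes of the MAP kinase cascade were examined in a map of the RNA bound by Argonaute 2 (Ago2) in mouse embryonic stem cells. Members were the genes of the deposited table of predicted microRNA sites whose symbol begins with Mapk, Map2k, Map3k, Map4k or Dusp followed by a digit, or with Mapkapk. The rule took 62 of 15271 genes. Of these, 37 encode kinases and 20 encode dual-specificity (Dusp) phosphatases, which are reported apart. The other 5 carry the name of a kinase without being one (scaffold and partner proteins such as those of Mapk8ip1, Mapk8ip2 and Mapk8ip3).

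Ago2 is the protein that carries a microRNA to its target, and iCLIP crosslinks protein to RNA in living cells and sequences the fragments that stay attached. The library analysed came from TT-FHAgo2 cells, in which doxycycline-inducible human Ago2 with a FLAG-HA tag was the single Ago family member, and the control library from TT-Ago2 cells, in which human Ago2 had no tag. Both clonal lines were grown in serum with leukemia inhibitory factor, kept in 0.1 µg/mL doxycycline and raised to 2.5 µg/mL for 24 h, a dose chosen to give Ago2 at its wild-type level, and both were partly digested with RNase I and taken through FLAG and then HA precipitation. Each group had 1 library, so every tagged-over-untagged value compares 2 libraries and not replicated conditions.

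MAP kinases are the last step of a relay in which a MAP3K phosphorylates a MAP2K and the MAP2K phosphorylates a MAP kinase of the ERK, JNK or p38 class. Dusp phosphatases of the MAP kinase phosphatase type remove those phosphates and switch the kinase off. In mouse embryonic stem cells, ERK signalling downstream of Fgf4 pushes cells out of self-renewal. MicroRNAs pair through the seed, bases 2 to 8 of the mature strand, mainly with sites in 3' UTRs, and the miR-290 to miR-295 cluster is abundant in these cells.

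The site table lists matches to 50 microRNA seeds (7mers, with the 8mers and 6mers around them), and 44 of the 50 matched a mature microRNA in RefSeq (build GRCm38.p6). The mature strands below carry the seeds that recur in the results, with the seed in capitals. The first pair shares one seed and stands for the embryonic stem cell family, the next one differs from it by a shift of the same run of bases, and the last pair matches the sites with most reads of any member.
mmu-miR-294-3p: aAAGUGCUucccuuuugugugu
mmu-miR-291a-3p: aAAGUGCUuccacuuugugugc
mmu-miR-17-5p: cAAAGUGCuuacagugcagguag
mmu-miR-7a-5p: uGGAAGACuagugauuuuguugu
mmu-miR-148a-3p: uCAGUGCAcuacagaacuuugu
mmu-miR-19b-3p: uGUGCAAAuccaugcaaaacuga
mmu-miR-423-3p: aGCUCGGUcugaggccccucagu
mmu-miR-127-3p: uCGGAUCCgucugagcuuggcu

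The matches below are a selection from the 3' UTR clusters described in the results, and are shown because they let the pairing be read against the mature strands. They are written 5' to 3' on the strand of the gene, with positions on mm9. Capitals mark a match to a listed seed, and lower case marks adjoining bases taken from overlapping entries of the same table.
Mapk6, chr9:75235053-75235058, minus strand: CCGAGC
Mapk6, chr9:75235043-75235051, minus strand: GATCCGaga
Mapk8, chr14:34193386-34193402, minus strand: TTGCACTTaccagctga
Mapk8, chr14:34195065-34195072, minus strand: ATGCTGCT
Mapk9, chr11:49697145-49697159, plus strand: cccatgtAGCACTTT
Map3k1, chr13:112538793-112538800, minus strand: AGCACTTT
Map3k9, chr12:82822917-82822925, minus strand: TTGCACTGA
Map3k12, chr15:102330126-102330139, minus strand: TTTGCACTTGGGAG
Dusp1, chr17:26642694-26642701, minus strand: CGGCACTG
Dusp11, chr6:85894631-85894638, minus strand: AGCACTTT
Dusp12, chr1:172804499-172804505, minus strand: GGCACTT
Dusp3, chr11:101833630-101833637, minus strand: TTTGAGCC

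Site values come from 789000 reads in the tagged library. The untagged number of a cluster was worked back from its deposited enrichment, and whether it was rescaled for depth is not known. Reads were not taken as independent molecules, so all intervals (exact Clopper-Pearson, 95%) cover counting error only. The lysates were bulk, so fewer cells with a bound transcript and less bound RNA per cell cannot be told apart. All 8 embryonic stem cell markers checked were listed, at 40.3 to 1655 FPKM, a unit of expression per transcript length, with Pou5f1 at 609 FPKM. Of 4 primitive endoderm markers 2 were listed (0.165 to 0.618 FPKM), of 4 trophectoderm markers 2 (0.957 to 13.9 FPKM), of 4 fibroblast markers 1 (1.89 FPKM) and of 4 neural markers 3 (2.02 to 40.1 FPKM, the highest being Tubb3). A gene that is not listed either had no isoform at 0.1 FPKM or is not analysed here.

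Ago2 clusters were found on MAP3K, MAP2K, ERK, JNK and Dusp genes, with the MAP3Ks and both JNKs making up most of the clustered kinase genes, and with none on a MAP4K, a p38 or a Mapkapk kinase. An enriched cluster, a stretch of reads above the untagged library at the authors' p under 0.05, lay in 9 of 37 kinase genes (24.3%, interval 11.8 to 41.2) and in 5 of 20 Dusp genes (25%, 8.66 to 49.1), against 17.1% of all genes. At the authors' p under 0.01 the counts were 6 of 37 and 4 of 20, against 10.5% of all genes. The intervals of both classes contain the share of all genes. None of the 5 partner genes had a cluster, which with 5 genes leaves an upper bound of 52.2%. The kinase classes are small too. The upper bound was 60.2% for the 4 MAP4K genes, 60.2% for the 4 p38 genes and 70.8% for the 3 Mapkapk genes. For the JNK genes (2 of 2) the interval was 15.8 to 100, and for the MAP3K genes (5 of 12) 15.2 to 72.3. Each of these intervals contains the 17.1% of all genes.

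Members with a cluster had a higher median expression than those without, as did all genes. The median highest isoform level was 8.86 FPKM in kinase genes with a cluster and 4.59 FPKM in those without, 11.7 and 3.14 FPKM in Dusp genes, and 13.9 and 3.26 FPKM in all genes. By level, 0 of 4 kinase genes below 1 FPKM had a cluster, 1 of 11 from 1 to 5 FPKM, 5 of 14 from 5 to 20 FPKM and 3 of 8 at 20 FPKM or more. The shares over all genes at those levels were 4.46%, 12.7%, 23.1% and 30.8%. For Dusp genes the counts were 1 of 4, 1 of 8, 2 of 4 and 1 of 4. The classes are small at each level, and the part of expression in the count of clusters was not tested.

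The 27 clusters held 253 tagged reads against 3 untagged in 19 clusters of kinase genes, and 78 against 2 in 8 clusters of Dusp genes. In 3' UTRs lay 16 of the 19 kinase clusters (84.2%) and 7 of the 8 Dusp clusters (87.5%), against 63.5% of all clusters. None of the 27 was annotated to coding sequence, against 784 of 5993 clusters of all genes outside splice junctions and up to 200 nt wide. A Map3k12 cluster labelled intron did cover a site that the site table calls coding. Clusters of 1 gene that overlap share reads, which touched 6 kinase clusters and 2 Dusp clusters. Counting each overlapping group once, at its highest value, gave 196 reads for kinase genes and 73 for Dusp genes.

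**Figure D1:**
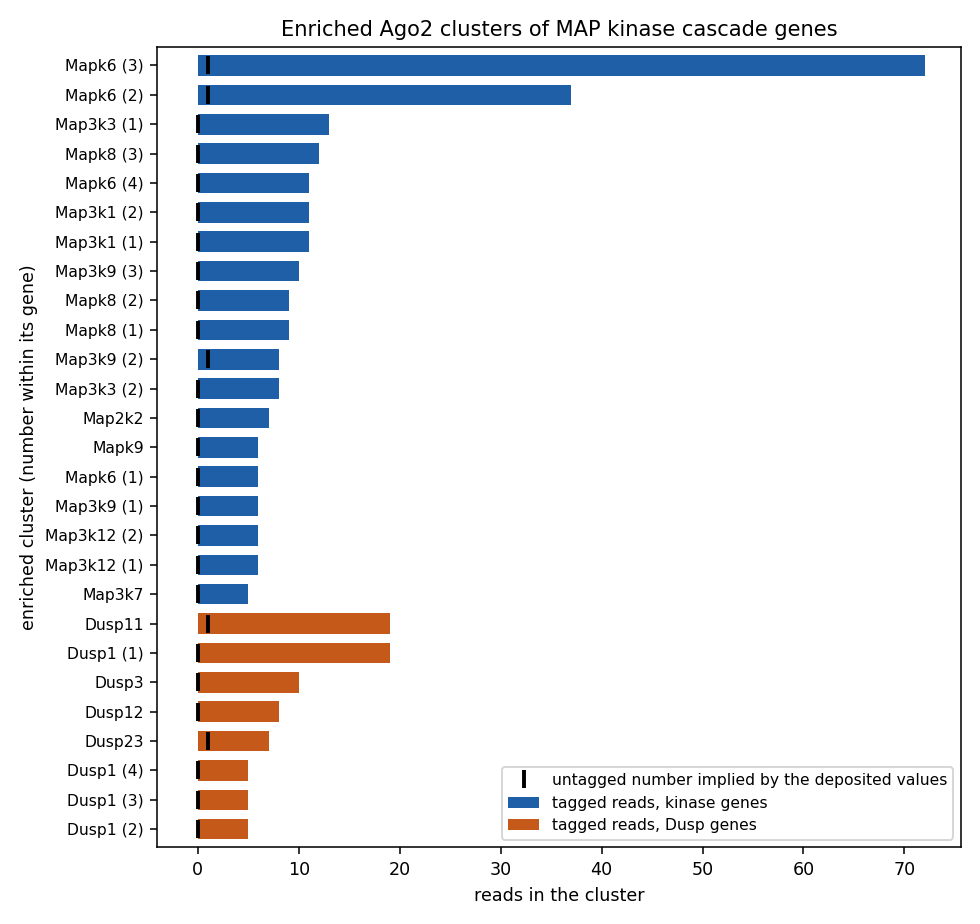
Reads in each enriched cluster of a member, with 1 bar per cluster for the tagged library (reads, horizontal axis from 0) and a black tick for the untagged number implied by the deposited values. Clusters of 1 gene are numbered by position. Mapk6 holds the longest bars, at 72 and 37 reads, all other clusters have 5 to 19 reads, and no untagged number exceeds 1.

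Among the ERK genes, Mapk6 had the clusters and the most reads of any member. Mapk6 encodes ERK3, an atypical MAP kinase with a long C-terminal extension, and its isoforms reached 45.2 FPKM. Its 4 clusters in the 3' UTR held 126 tagged reads against 2 untagged, 49.8% of all kinase cluster reads, which left 127 for the other 8 genes. These sums take every cluster in full, though the Mapk6 clusters of 72 and 37 reads overlap and share reads. The largest, at chr9:75235036-75235117, held 72 tagged reads against 1 untagged and ranked 17th of 6211 clusters by reads. The authors' deposited table gives it a log2 enrichment of 5.19 and a binomial p of 7.835e-21.

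The largest Mapk6 cluster, 82 bases wide, covered 2 neighbouring listed 6mers near one end and no longer listed match. The reads do not show whether either 6mer is paired. CCGAGC, the match to bases 2 to 7 of miR-423-3p, had 74 reads, and GATCCG, the same kind of match to miR-127-3p, had 61. They are the 2 listed sites with most reads in any member. An overlapping cluster (chr9:75235021-75235052) had 37 reads against 1, and the smaller ones at chr9:75235252-75235304 and chr9:75234947-75234985 had 11 and 6 against 0. The cluster of 11 reads covered GCACTT, the 6mer core of the miR-291a-3p family, while that of 6 reads covered no listed match. Of 13 listed 3' UTR sites 8 had a read (61.5%, 31.6 to 86.1), and of 20 control sites 10, so reads lay along much of this 3' UTR. Control sites are 8mers of the table that extend none of the 50 seeds. The files do not say what these 8mers are for, so their use as a control is an assumption, and they include CTACCTCA, the let-7 match.

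Other genes of the ERK class had no cluster and few reads. Mapk3 (ERK1, 1.24 FPKM) had a read at 0 of 15 listed 3' UTR sites and 4 of 23 coding sites, Mapk7 (ERK5, 6.13 FPKM) at 2 of 11 3' UTR sites, and Mapk4 (ERK4, 2.68 FPKM) at 1 of 37.

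Both JNK genes of the table had clusters, all in 3' UTRs and all with 0 untagged reads. Mapk8 encodes JNK1, a kinase activated by stress and cytokines, and reached 8.86 FPKM. Its cluster at chr14:34195036-34195094 held 12 reads (at least 4-fold over a floor of 3 counts per cluster), over ATGCTGCT, which joins the matches of miR-15a-5p and miR-103-3p and had 14 reads. A touching pair at chr14:34193327-34193369 and chr14:34193367-34193415 held 9 reads each (at least 3-fold). The first covered AAGCCAT (miR-135a-5p) and TTTGAT (miR-291a-5p), and the second covered TTGCACTT, which joins the miR-19 and miR-291a-3p cores. The entries under this pair belong to an isoform listed at 0.525 FPKM, and those under the 12-read cluster to one listed at 7.88 FPKM. In the authors' deposited table the p of the 12-read cluster is 0.0002 and that of each of the pair 0.0019.

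Mapk9 (JNK2, 7.27 FPKM) had 1 cluster of 6 reads at chr11:49697141-49697176 (at least 2-fold), over AGCACTTT. This 8-base run holds the 7mers of the miR-291a-3p and miR-17 families at once, so the same 6 reads count for both. In the authors' deposited table its p is 0.0156. Listed 3' UTR sites had a read at 19 of 63 in Mapk8 (30.2%, 19.2 to 43) and 11 of 60 in Mapk9 (18.3%, 9.52 to 30.4), and the intervals overlap.

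The p38 kinases had no cluster in any of 4 genes. Mapk14 encodes p38α, the main p38 of most tissues, and at 30 FPKM had a read at 11 of 43 listed 3' UTR sites (25.6%, 13.5 to 41.2) and 9 of 38 control sites, with at most 3 reads at a site. Mapk13 (p38δ, 6.27 FPKM) had a read at both of its 2 listed 3' UTR sites. Mapk11 (p38β, 0.56 FPKM) and Mapk12 (p38γ, 1.9 FPKM) had none at any entry.

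Among the 7 MAP2K genes, Map2k2 alone had a cluster. Map2k2 encodes MEK2, a kinase that phosphorylates ERK, and reached 54.7 FPKM. The cluster, at chr10:80586510-80586552, held 7 reads against 0 (at least 2.33-fold; p 0.0078 in the authors' deposited table) over CGGCAC, the core of the miR-293-3p match. It was the single listed 3' UTR site with a read among 25 (4%, 0.101 to 20.4). Its partner Map2k1 (MEK1, 34.9 FPKM) had a read at 4 of 13 sites (30.8%, 9.09 to 61.4) and no cluster.

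Map2k3 encodes MKK3, an activator of p38, and had one of the highest shares of supported sites without any cluster. Reads were found at 17 of 24 listed 3' UTR sites (70.8%, 48.9 to 87.4) and at 7 of 10 control sites, with at most 6 at one site and 21.9 FPKM. The listed and control shares were close. Map2k4 (an activator of JNK and p38, 14.2 FPKM) had reads at 14 of 53 sites, Map2k7 (a JNK activator, 1.34 FPKM) at 12 of 60, Map2k5 (the ERK5 activator, 7.75 FPKM) at 2 of 7 and Map2k6 (a p38 activator, 5.59 FPKM) at 0 of 14.

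MAP3K genes had clusters in 5 of 12 (41.7%, 15.2 to 72.3), with 84 tagged reads against 1 untagged in 10 clusters. Map3k9 encodes the mixed-lineage kinase MLK1, which acts on the JNK branch, and had 3 clusters in its 3' UTR at 8.52 FPKM. The cluster at chr12:82822890-82822948 held 10 reads against 0 (at least 3.33-fold) over GCACTTT (11 reads) and TTGCACTGA (10 reads), which joins the miR-19 and miR-148a-3p matches. That at chr12:82821747-82821796 held 8 against 1 over CTGAGCC (miR-24-3p, 9 reads), and that at chr12:82818921-82818956 held 6 against 0 over AGCACTT. The authors' deposited table gives the 3 clusters p of 0.001, 0.0195 and 0.0156.

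Map3k1 encodes MEKK1, which feeds the JNK and ERK branches. At 3.02 FPKM it was the least expressed kinase gene with a cluster. A pair of overlapping clusters (chr13:112538710-112538770 and chr13:112538749-112538816) held 11 reads each against 0 (at least 3.67-fold; p 0.0005 each in the authors' deposited table). They covered a dense run of matches, with GCAGCT (miR-22-3p) at 18 reads, TTTGAT (miR-291a-5p) at 17, TCTTCC (miR-7a-5p) and GCACTTT at 13, and AGCACTT at 10. A read was found at 16 of 37 listed 3' UTR sites (43.2%, 27.1 to 60.5) and 8 of 41 control sites.

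Map3k3 encodes MEKK3, an upstream kinase of the ERK5 branch, and differed from the other MAP3Ks in where its clusters lay. Both carried the authors' label "Genic+5kb" and no listed seed match. They held 13 reads (chr11:106016868-106016937, at least 4.33-fold) and 8 reads (chr11:106017532-106017573, at least 2.67-fold) against 0. Within the annotated 3' UTR, 13 of 31 listed sites had a read at 5.22 FPKM, but none more than 2.

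Map3k12 encodes DLK, a stress kinase best known from neurons, and reached 14.8 FPKM. Its 3' UTR cluster at chr15:102330131-102330168 held 6 reads against 0 and was 38 bases wide, over 6 listed matches of 5 families. The stretch TTTGCACTTGGGAG begins with the miR-19 match, runs through the GCACTT core and ends with TTGGGAG, and the next, GTTTACTGTTTACA at chr15:102330143-102330156, holds the miR-30a-5p match more than once. A further cluster of 6 reads (chr15:102334727-102334770), labelled intron by the authors and coding in the site table, covered TTTGCACA, an 8mer match of miR-19. Map3k7 encodes TAK1, which relays TGF-beta and interleukin-1 signals, and at 22.5 FPKM had 1 cluster of 5 reads against 0 (chr4:32110214-32110252) over TCTTCC, the miR-7a-5p core. It had a read at 3 of 50 listed 3' UTR sites (6%, 1.25 to 16.5).

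The 7 MAP3K genes without a cluster ranged from many supported sites to none. Map3k11 (MLK3, 2.52 FPKM) had reads at 8 of 11 listed 3' UTR sites (72.7%, 39 to 94), with at most 3 at a site, and Map3k14 (NIK, a kinase of the noncanonical NF-kappaB pathway, 0.575 FPKM) at 7 of 25. Map3k10, Map3k4 and Map3k5 had 1 supported 3' UTR site each, of 5, 8 and 18. Map3k6 had 0 of 1, though 2 of its 60 coding sites had a read, and Map3k15 had no read at any of 156 entries.

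The remaining kinases, which act at the top of the relay or downstream of it, had no cluster. Among MAP4K genes, Map4k2 had reads at 2 of 79 listed 3' UTR sites, Map4k5 at 1 of 23 and Map4k1 at 0 of 1, while Map4k4 had no listed 3' UTR site. The highest value in this class was 8 reads at a CCGGCT in the 5' UTR of Map4k2. Of the kinases activated by MAP kinases, Mapkapk5 (PRAK, 26.8 FPKM) had reads at 8 of 29 coding sites and 0 of 1 3' UTR site, Mapkapk3 (MK3, 14.9 FPKM) at 3 of 21 3' UTR sites and Mapkapk2 (MK2, 10.9 FPKM) at 3 of 30.

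The 8 clusters on phosphatases were split evenly between Dusp1, a MAP kinase phosphatase, and 4 genes of other types. Of 9 MAP kinase phosphatases 1 had a cluster (11.1%, 0.281 to 48.2), and of the 11 other Dusp genes 4 had one (36.4%, 10.9 to 69.2), and the intervals overlap. Dusp1 encodes MKP-1, an immediate early nuclear phosphatase of p38 and JNK, and held 34 of the 78 Dusp cluster reads at 11.7 FPKM. The other 4 genes held 44. Its main cluster, at chr17:26642668-26642729, held 19 reads against 0 (at least 6.33-fold; p 1.9073e-06 in the authors' deposited table) over CGGCACTG, which joins the miR-293-3p and miR-148a-3p cores, and AGCAGG (miR-370-3p), with 20 reads at each.

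Reads covered nearly all listed matches in the 3' UTR of Dusp1, and fewer in its coding sequence. A read was found at 14 of 15 listed 3' UTR sites (93.3%, 68.1 to 99.8), 3 of 10 control sites and 9 of 23 listed coding sites. The 3 smaller clusters held 5 reads each against 0, an overlapping pair at chr17:26642996-26643035 and chr17:26643014-26643038 over CGGCAC and GCAAGACA (miR-431-5p), and 1 at chr17:26643138-26643162 over TGGGAG and TGCAAT (miR-25-3p).

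Dusp11 encodes an RNA 5'-triphosphatase rather than a MAP kinase phosphatase. It reached 13.7 FPKM and had 1 cluster of 19 reads against 1 (chr6:85894599-85894662), with log2 3.32 and p 2.0027e-05 in the authors' deposited table. The run AGCACTTT lay in it, with 23 reads at each of its overlapping 7mers, the highest listed site of any phosphatase. Outside the cluster reads were sparse, at 12 of 73 listed 3' UTR sites in all (16.4%, 8.79 to 27) and 14 of 74 control sites.

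Dusp3 encodes VHR, a small phosphatase that can act on ERK and JNK, and had a cluster of 10 reads against 0 (chr11:101833635-101833696, at least 3.33-fold). The listed run TTTGAGCC touches the edge of this cluster with 4 to 8 reads, while control 8mers inside it, such as CCCCAACA, had 11. These entries belong to an isoform listed at 0.194 FPKM, and the highest isoform of Dusp3 reached 4.79 FPKM. Dusp12, a zinc-binding phosphatase at 35.8 FPKM, had 8 reads against 0 (chr1:172804475-172804523, at least 2.67-fold) over GGCACTT, the 7mer of miR-290a-3p (9 reads). Dusp23, at 0.241 FPKM the lowest expressed member, had a "Genic+5kb" cluster of 7 reads against 1 (chr1:174560301-174560342) with no listed match and no supported 3' UTR site.

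Several phosphatases of higher expression had no cluster. Dusp9 (MKP-4, 33.3 FPKM) had a read at 1 of 18 listed 3' UTR sites, Dusp6 (MKP-3, a cytoplasmic phosphatase of ERK and a common readout of its activity, 22 FPKM) at 3 of 16, Dusp27 (21.7 FPKM) at 0 of 8 and Dusp16 (MKP-7, 13.8 FPKM) at 3 of 26. Of the others without a cluster, Dusp5 and Dusp7 had 3 supported sites each, of 12 and 21, Dusp18 had 3 of 56, Dusp2 had 1 of 8 and Dusp28 had 0 of 10. Dusp4, Dusp10, Dusp14, Dusp19, Dusp22 and Dusp26 had no read at any entry. In all, 32 of 37 kinase genes and 14 of 20 Dusp genes had a read at some entry, against 67.6% of all genes.

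**Figure D2:**
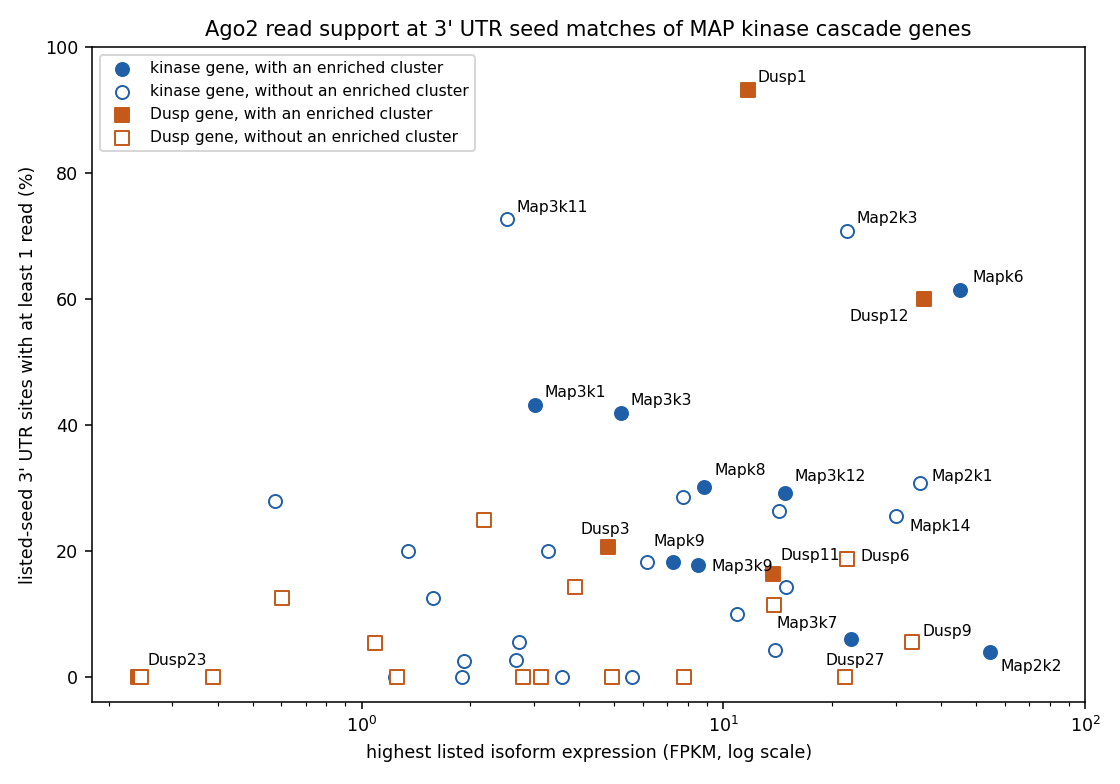
Share of listed-seed 3' UTR sites with at least 1 read (percent, vertical axis) against the highest listed isoform level (FPKM, log scale), 1 point per kinase or Dusp gene with at least 5 such sites, except 1 gene not reported here. Filled points have an enriched cluster. Dusp1 stands at 93.3%, Map3k11, Map2k3, Mapk6 and Dusp12 at 60% to 72.7%, and genes of similar expression spread from 0% upward.

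In 3' UTRs, listed sites of kinase genes had reads more often than those of Dusp genes. With all match types pooled and 1 read as support, the ratio to control sites was below that of all genes in both classes. Reads were present at 222 of 1033 listed 3' UTR sites of kinase genes (21.5%, 19 to 24.1) and at 156 of 909 control sites (17.2%, 14.8 to 19.8), a ratio of 1.25. In Dusp genes they were present at 59 of 411 listed sites (14.4%, 11.1 to 18.1) and 48 of 435 control sites (11%, 8.25 to 14.4), a ratio of 1.3. Over all genes the shares were 16.5% of listed and 11.5% of control sites, a ratio of 1.44. Listed and control intervals overlap in both classes. Most listed sites were 6mers (714 of 1033 in kinase genes and 297 of 411 in Dusp genes), while every control site is an 8mer. These ratios therefore compare unlike match types. With listed 7mers and 8mers alone the ratios were 1.61 in kinase genes and 1.83 in Dusp genes. The median level was 6.13 FPKM in kinase genes and 4.33 FPKM in Dusp genes, and its part in their difference was not tested.

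A few genes made up much of each total. The 5 kinase genes with most supported sites held 44.6% of the 222. The 5 such Dusp genes held 76.3% of the 59, led by Dusp1 with 14. Without Dusp1 the Dusp share was 11.4% and its ratio to control 1.07. Without Mapk6 the kinase share was 21%.

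Longer matches of kinase genes had reads more often than 6mers. The shares were 29.4% for 8mers (19 to 41.7), 27.1% for 7mers (21.7 to 33) and 18.8% for 6mers (16 to 21.8), against 21.2%, 19.7% and 15.1% in all genes. In Dusp genes they were 12.5% for 8mers (4 of 32, 3.51 to 29), 23.2% for 7mers (14.6 to 33.8) and 12.1% for 6mers (8.64 to 16.4). The 8mer interval in Dusp genes is wide enough to contain the other shares. Enriched clusters covered 33 of the 1033 kinase sites (3.19%) and 13 of the 411 Dusp sites (3.16%), against 1.73% of all listed 3' UTR sites and 4 control sites in each class.

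**Figure D3:**
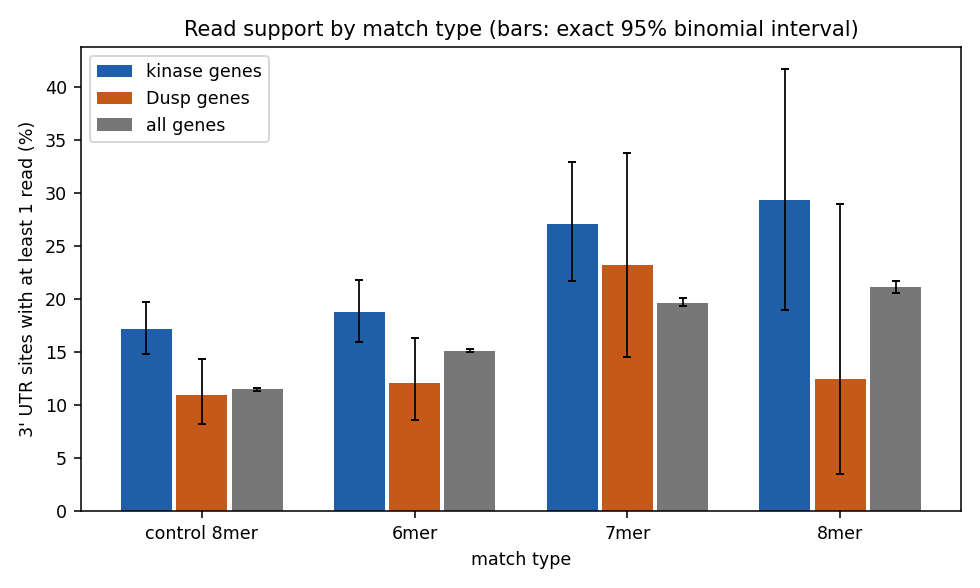
Share of 3' UTR sites with at least 1 read (percent) by match type, for control 8mers and listed 6mers, 7mers and 8mers, in kinase genes, Dusp genes and all genes, with exact 95% binomial intervals. Kinase genes run from 17.2% at control sites to 29.4% at 8mers, and the Dusp 8mer bar (12.5%) has the widest interval.

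In coding sequence the order of the classes turned, and reads were rarer in kinase genes, with overlapping intervals. They were present at 60 of 685 listed sites (8.76%, 6.75 to 11.1) and 48 of 648 control sites (7.41%), a ratio of 1.18, against 11.5% of listed sites and a ratio of 1.36 in all genes. Dusp genes had reads at 23 of 180 listed coding sites (12.8%, 8.28 to 18.6) and 18 of 198 control sites (9.09%), a ratio of 1.41. The partner genes had reads at 4 of 93 listed 3' UTR sites (4.3%, 1.18 to 10.6) and 7 of 85 control sites.

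The embryonic stem cell seed family stood first among the families on these genes, as it did over all genes. GCACTT, the core matched by miR-291a-3p, miR-294-3p, miR-295-3p, miR-302b-3p and miR-290a-3p, had reads at 21 of 27 3' UTR sites of kinase and Dusp genes (77.8%, 57.7 to 91.4), in 15 of the 18 genes that carry one. Its share over all genes was 47.7%, and 61% at those sites of all genes whose own isoform was listed at 5 FPKM or more. The interval of the members contains the latter value. By class, reads lay at 16 of 20 kinase sites and 5 of 7 Dusp sites.

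The 27 sites ranged from 23 reads to 0. The highest were those of Dusp11 (23), Mapk6 (11), Map3k1 (10), Dusp12 and Mapk8 (9 each), Map3k12 (7), and Map3k9 and Mapk9 (6 each), and each of these 8 sites lay in an enriched cluster. The 6 sites without a read were in Dusp11, Dusp2, Map3k14, Map4k2, Mapk9 and Mapkapk3. A run with the GCACTT letters, counting matches of either overlapping family, lay in 7 of 19 kinase clusters (36.8%, 16.3 to 61.6) and 2 of 8 Dusp clusters (25%, 3.19 to 65.1). The share was 18.5% of all clusters outside splice junctions and up to 200 nt wide. Those include clusters on genes outside the site table, for which no match is listed.

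The other families with most supported sites were those of miR-17, miR-7, miR-124 and miR-148. CACTTT, the core of the miR-17 and miR-106 family, had reads at 17 of 40 sites (42.5%, 27 to 59.1; 27.4% in all genes), 14 of 24 in kinase genes and 3 of 16 in Dusp genes. Its 7mer overlaps that of miR-291a-3p in AGCACTTT, so these counts share reads with the family above. TCTTCC (miR-7a-5p and miR-7b-5p) had reads at 13 of 30 kinase sites and 0 of 17 Dusp sites (upper bound 19.5%), together 27.7% against 17.8% in all genes. TGCCTT, the core of the match to miR-124-3p by its textbook seed, had reads at 13 of 57 sites (22.8% against 18.9%), and GCACTG (miR-148a-3p, miR-148b-3p and miR-152-3p) at 12 of 31 (38.7% against 24.8%). At sites of all genes whose own isoform was listed at 5 FPKM or more, the shares were 36.5% for the miR-17 family and 27.7% for miR-7. They were 27.9% for miR-124 and 36.9% for miR-148. Against those sites the members were no higher for miR-7, lower for miR-124 and close for miR-148. The members were not restricted by expression in this comparison.

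**Figure D4:**
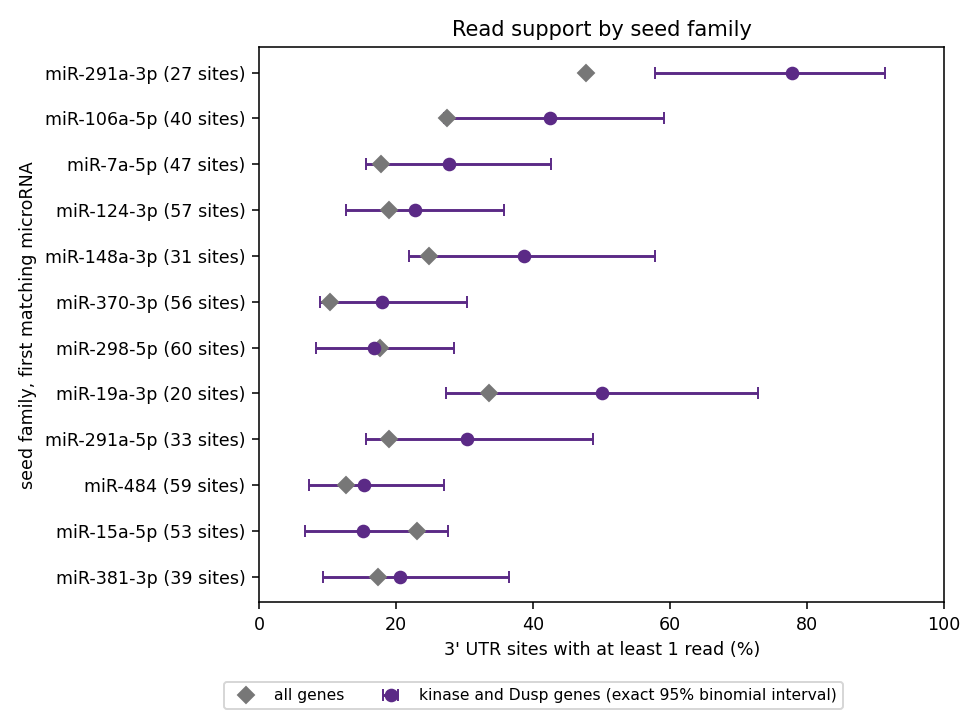
Share of 3' UTR sites with at least 1 read (percent) for the 12 seed families with most supported sites in kinase and Dusp genes, named by the first matching microRNA (miR-124-3p by its textbook seed, the others by RefSeq), with exact 95% binomial intervals and the number of sites. Grey diamonds give all genes. For miR-291a-3p the point (77.8%) lies farthest to the right, and its interval starts above the diamond (47.7%).

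Most clusters on these genes covered a listed seed match. A listed 7mer or 8mer lay in 10 of 19 kinase clusters and 4 of 8 Dusp clusters, against 34.2% of all clusters, and no listed match lay in 3 and 1 of them, against 47% of all. The 4 clusters without one were the "Genic+5kb" clusters of Map3k3 and Dusp23 and the 6-read cluster of Mapk6. The member sites counted here lie in 3' UTRs, coding sequence and 5' UTRs. Whether the site table lists matches in "Genic+5kb" stretches at all was not checked. The lack of a listed match in those clusters therefore says nothing about their sequence. More of the member clusters lie in 3' UTRs, where the table lists the most sites. Every member is a gene of the site table, while all clusters include some on genes outside it, such as Map3k2, for which no match is listed. The part of any of these in the difference was not tested.

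Supported sites of kinase genes had high conservation scores more often than unsupported ones, and in Dusp genes the gap was smaller. PhastCons, a score from 0 to 1 for conservation between species, was at least 0.9 at 52.7% of the 222 supported kinase sites and 26.3% of the 811 without a read, with medians of 0.921 and 0.0397. In clusters the share was 72.7% of 33 sites. For Dusp genes it was 18.6% of 59 supported sites, 12.8% of 352 without a read and 15.4% of 13 in clusters, with medians of 0.114, 0.0284 and 0.138. Over all genes it was 32.1%, 18.4% and 44.8%.

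The same held within genes for the kinases. Among genes with at least 3 sites of each kind, the median score was higher at supported sites in 15 of 18 kinase genes and in 2 of 7 Dusp genes. Mapk9 had 0.98 at supported sites and 0.0129 at the others, Map3k12 had 0.996 and 0.0029, and Map3k9 0.496 and 0.0025. In Dusp11 the medians were 0.143 and 0.0185, and in Dusp3 0.0021 and 0.0343. Dusp1, with a read at 14 of 15 sites, had too few sites without a read to enter. Single sites in clusters went both ways in each class. The AGCACTT of Dusp11 (23 reads) scored 0.138 and the GGCACTT of Dusp12 (9 reads) 0.0006. In Dusp1 the sites of 20 reads scored 0.995 (GCACTG), 0.998 (CGGCAC) and 0.862 (AGCAGG). The GCACTT of Mapk8 (9 reads) and the AGCACTT of Map3k1 (10 reads) scored 1, and the AGCACTT of Map3k9 (6 reads) 0.0007. Neighbouring sites share both reads and score, so sites are not independent.

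**Figure D5:**
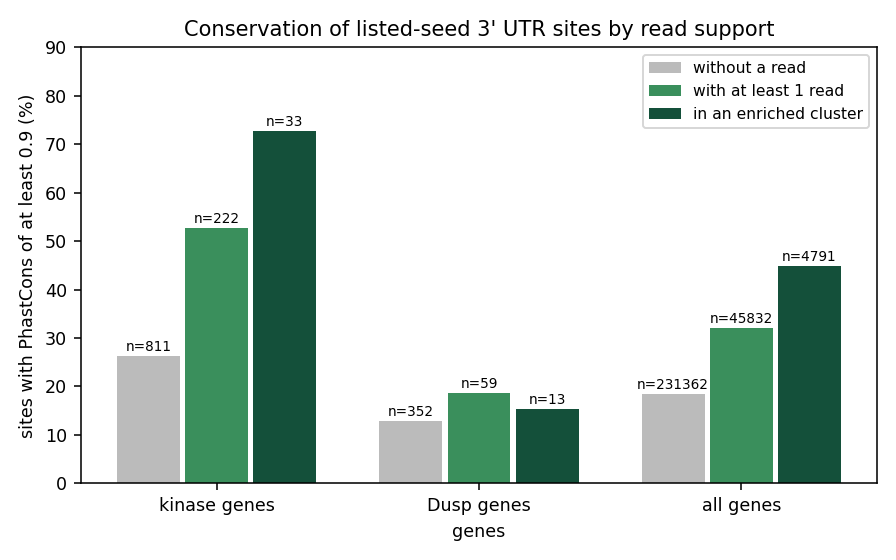
Share of listed-seed 3' UTR sites with a PhastCons score of at least 0.9 (percent), for sites without a read, with at least 1 read and in an enriched cluster, in kinase, Dusp and all genes, with the number of sites above each bar. Kinase bars rise from 26.3% to 52.7% and 72.7%, while Dusp bars stay between 12.8% and 18.6%.

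Genes that feed the cascade or carry its output had clusters in 47 of 102 listed (46.1%, 36.2 to 56.2), with a median of 9.39 FPKM. At 5 to 20 FPKM clusters lay in 18 of 36 of them and at 20 FPKM or more in 18 of 31, against the 23.1% and 30.8% of all genes given above. These lists of textbook components were drawn up with earlier results of these data known, so the counts describe them and support no direction. Growth factor input had clusters in 5 of 11 genes, led by Fgf4, the ligand that activates ERK in these cells (503 tagged against 26 untagged in 20 clusters), and the receptor Erbb3 (57 against 0). Adaptors and Ras had them in 11 of 17, led by the docking protein Gab1 (40 against 0) and the Ras exchange factor Sos1 (14 against 0).

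Raf kinases and scaffolds, the step just above the MAP2Ks, had clusters in 2 of 10, led by the scaffold Shoc2 (42 against 0). Inhibitors other than Dusp had them in 9 of 18, led by the Ras GTPase-activating proteins Nf1 (40 against 0) and Rasa2 (40 against 1). Stress input had them in 9 of 18, led by the kinases Taok1 (40 against 1) and Mink1 (31 against 0). Effectors had them in 11 of 28, led by the transcription factors Mef2a (92 against 4), a p38 and ERK5 substrate, and Elk4 (74 against 0), a partner of serum response factor.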

How the data were processed

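Both libraries are Ago2 iCLIP of mouse embryonic stem cells. The submitters' processing notes name Bowtie, TopHat, mm9 and NCBIM37, without roles or versions. The cluster caller and the handling of multiply mapping and duplicate reads were not given in the sources used here, nor was where the expression values come from.

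Per the file headers, the cluster list gives the peak height, a signal in whole reads, and other text in which the authors joined the tagged reads, the log2 enrichment and its binomial p. The untagged number is the one that matches the authors' log2 as tagged reads plus 1 over that number plus 1, within 0.005 in all 6211 clusters. The site table gives rpm made by the authors (100% of values were whole multiples of 1.27 within 0.001, so whole reads of 789000 were recovered), FPKM per isoform by the authors (at least 0.1), log2 coverage as deposited, and a PhastCons score as deposited. With 1 library per group no count test was run.

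Repeated entries of the same sequence and place were counted once. Matches inside a longer listed match were left out (37269), as were control 8mers that overlap a listed match. Support is at least 1 read. Sites were set against clusters on the same strand (at least 1 nt), with clusters over 200 nt or across junctions left out. A gene's level is its highest listed isoform. Folds against 0 use a floor of 3 counts per cluster. Python 3.11.15, pandas 2.3.3, numpy 2.4.6, scipy 1.17.1 and matplotlib 3.10.9 were used, and the counting steps were tested on simulated data.

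Members and lists were chosen with earlier results of these data known. Named genes are every member with a cluster (in full for the 8 kinases and 5 Dusp with most reads), the 6 kinases and 4 Dusp of highest FPKM without one, the members with the 5 listed sites with most reads, the 5 seed families with most supported sites, and the 2 genes with most cluster reads in each pathway list. The other members are given to account for them. A few genes that these rules name are not reported here, though they stay in the counts. Alternatives were other thresholds, match types, filters and genes left out.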

Additional observations from a re-analysis of the deposited data

Results flagged for a closer look

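Map3k2, which encodes the MEKK2 kinase of the ERK5 branch, had a signal outside the table from which the members were drawn. Its name is in the cluster list and not among the genes of the site table. It had 3 enriched clusters in its 3' UTR with 6, 8 and 7 tagged reads, 21 in all, against 0 untagged, so it stands beside Map3k3 in reads but enters none of the counts above. No other value met a rule for a closer look, since groups of 1 library allow no check for outlying samples.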

How the results depend on the processing

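The shares of genes with a cluster lay between 16.2% and 27.3% for kinases and between 20% and 25% for Dusp genes under all alternatives run. Of these alternatives, the share over all genes is given only for the authors' p under 0.01 (10.5%). The values under the other alternatives should not be set against the 17.1% of all genes. With at least 2 reads as support, the shares of supported 3' UTR sites were 10.6% (kinases) and 8.03% (Dusp) and the ratios to control 1.7 and 2.05. With overlap of a cluster as support they were 3.19% and 3.16%, with ratios of 7.26 and 3.44 that rest on 4 control sites each. With 7mers and 8mers alone they were 27.6% and 20.2%, with ratios of 1.61 and 1.83. The ratio to control was above 1 in every alternative run. At the authors' p under 0.01 the cluster reads were 210 and 56, by fewer clusters, and overlapping clusters counted once gave 196 for kinases. Leaving out Dusp1, Dusp11 or Mapk6 and counting overlaps once were chosen after seeing the data. No paired analysis was possible because each group has 1 library and no test was made. Most member clusters have 5 to 13 reads, so a gene without a cluster is not shown to be unbound at this depth, and the untagged library's depth and scaling are unknown.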
